A study of Mus musculus with 9 samples.

Results

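A set of 10 protein-coding genes that lie beside Setd2 on mouse chromosome 9 were compared between colonic epithelium that had lost Smad4 and epithelium that had lost both Smad4 and Setd2. The genes are Smarcc1, Cspg5, Elp6, Scap, Ptpn23, Klhl18 and Kif9 before Setd2, and Nradd, Nbeal2 and Ccdc12 after it. The list was given by place beside Setd2, leaves out Setd2 and also Ngp, which lies between its members, and makes up 10 of the 46095 rows of the count table. Nbeal2, an adaptor of membrane trafficking, was 1.44-fold lower in the epithelium without Setd2, and Scap, the escort of the sterol-regulated transcription factors, was 1.25-fold lower. No neighbour was called higher, and the call of Scap was lost in 12 of 19 alternative fits.

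SETD2 is the enzyme that trimethylates lysine 36 of histone H3 along transcribed genes. In a floxed allele, part of a gene lies between loxP sites and is cut out where Cre recombinase is made, while the genes beside it keep their own exons and promoters. Genes that lie close together on a chromosome are inherited together with the targeted allele and may share promoters or other control regions.

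RNA was sequenced from intestinal epithelial cells (IECs) that had been released with EDTA from the colon. There were 4 libraries labelled Smad4-knockout, from Smad4 Vil-KO mice, called the control libraries here, and 5 labelled Smad4-knockout;Setd2-knockout. The latter are called the Setd2-deleted libraries here (genotype Smad4 Vil-KO;Setd2 Vil-KO). Both genotypes therefore lacked Smad4 in the epithelium, both carried Villin-Cre, which is active in intestinal epithelium, and both were kept on a C57BL/6J background. All mice had received AOM, a carcinogen, at 10 mg/kg and 8 weeks of age, then 1 course of 2% DSS, an agent that damages the lining of the colon, and cells were taken at 10 days. Littermates under the same treatment served as controls in the study. The strain in which the floxed Setd2 allele was made and the number of backcrosses are not given in the sources used here, so that loss of Setd2 and chromosome 9 DNA linked to its floxed allele cannot be told apart. One column was deposited per numbered library, and the p-values measure the spread between these libraries.

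The libraries held 12487129 to 17120202 counts. Levels are given as CPM, in which the counts of a library are scaled to its total and its TMM factor, and 1 count was worth 0.0594 to 0.0794 CPM. Setd2-deleted replicates 1, 2 and 5 held 3857 to 4907 Y-linked counts, while the other 6 libraries held 0 to 28. Those 3 libraries held 5 to 6 counts of Xist and the other 6 held 17833 to 26617, the pattern of male and female mice. All control libraries were among the latter, so that sex is partly confounded with genotype. The genotype comparison was therefore repeated with a term for these 3 libraries and in the other 6 libraries alone. All 3 are Setd2-deleted, so both fits take the genotype difference from the same 6 libraries. The 2 fits differ in the estimate of spread and are not separate checks. The summed level of 12 markers of colonic epithelium was 20800 to 25700 CPM in the control libraries and 15400 to 21100 CPM in the Setd2-deleted libraries, and 1 of the 12 was called lower. Of 9 tested markers of small intestinal enterocytes, 6 were called higher in the Setd2-deleted libraries, and the sum of the list was 413 to 481 CPM in the control and 584 to 1280 CPM in the Setd2-deleted libraries. No tested marker of leukocytes (9 genes; sum 68.6 to 174 CPM in the control and 56.8 to 127 CPM in the Setd2-deleted libraries) or stroma (5 genes; 13.3 to 30.6 and 21.2 to 61.2 CPM) was called by edgeR, with 0 and 2 of them at an unadjusted p under 0.05 and 0 and 1 called by DESeq2. Mitochondrial genes took 8.12% to 9.03% of the counts in the control libraries, 5.62% and 6.29% in Setd2-deleted replicates 1 and 2, and 9.15% to 10.3% in replicates 3, 4 and 5. The part of these differences in the results on the neighbours was not tested.

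In the RefSeq annotation of GRCm38.p6, the neighbours and Setd2 fill 579.6 kb of chromosome 9, from base 110132024 to base 110711593. Setd2 occupies bases 110532500 to 110618633 on the plus strand. Nradd lies 2.5 kb beyond it, Nbeal2 6.16 kb and Ccdc12 35.67 kb, and on the other side the gap is 7.33 kb to Kif9, 55.76 kb to Klhl18, 124.29 kb to Ptpn23, 147.55 kb to Scap, 210.4 kb to Elp6, 269.92 kb to Cspg5 and 292.32 kb to Smarcc1. Ptpn23, Klhl18, Nradd and Nbeal2 are read from the minus strand and the other neighbours from the plus strand. The only other protein-coding gene in the interval is Ngp, a neutrophil granule protein, which had 0, 0, 1 and 0 counts in the control libraries and 0, 3, 0, 0 and 0 counts in the Setd2-deleted libraries.

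The 250 bases before the transcript starts are shown for Setd2, for the neighbours called lower and for the pair Klhl18 and Kif9, whose upstream sequence is shared. Sequences are those of RefSeq on GRCm38.p6, written 5′ to 3′ on the strand of the gene, with capitals marking matches on either strand to CCAAT, to GGGCGG (the letters of a GC box) and to TATAAA. They cover chr9:110532347-110532596 (Setd2, plus strand), chr9:110654162-110654411 (Nbeal2, minus strand), chr9:110333038-110333287 (Scap, plus strand) and chr9:110476708-110476957 (Kif9, plus strand).
Setd2: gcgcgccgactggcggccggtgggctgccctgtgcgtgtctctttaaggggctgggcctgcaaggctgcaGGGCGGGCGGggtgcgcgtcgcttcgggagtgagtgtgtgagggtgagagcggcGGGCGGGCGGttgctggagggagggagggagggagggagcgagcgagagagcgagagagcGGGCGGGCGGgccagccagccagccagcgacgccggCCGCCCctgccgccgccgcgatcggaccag
Nbeal2: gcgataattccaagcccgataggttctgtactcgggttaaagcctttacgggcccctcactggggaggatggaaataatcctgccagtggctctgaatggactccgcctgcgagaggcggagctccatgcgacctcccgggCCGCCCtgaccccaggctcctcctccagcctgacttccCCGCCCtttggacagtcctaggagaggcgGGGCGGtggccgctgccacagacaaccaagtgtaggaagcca
Scap: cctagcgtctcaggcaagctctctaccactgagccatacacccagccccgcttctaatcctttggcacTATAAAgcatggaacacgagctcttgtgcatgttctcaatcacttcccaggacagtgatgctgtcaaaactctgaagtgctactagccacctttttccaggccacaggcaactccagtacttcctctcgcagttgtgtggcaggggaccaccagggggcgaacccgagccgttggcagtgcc
Kif9: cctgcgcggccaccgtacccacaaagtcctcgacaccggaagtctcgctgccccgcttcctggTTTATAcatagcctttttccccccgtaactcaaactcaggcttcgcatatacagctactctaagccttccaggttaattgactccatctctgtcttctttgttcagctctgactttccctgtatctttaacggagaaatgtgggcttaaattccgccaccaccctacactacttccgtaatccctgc
The windows were taken from the listed transcript starts, which can lie inside the outermost gene spans given above, as they do for Setd2, Klhl18 and Kif9. The spans of Klhl18 and Kif9 adjoin, while these first listed starts point away from each other with 263 bases between them, so that 237 of the bases printed for Kif9 are, on the opposite strand, also upstream of Klhl18. The Setd2 window was 76.0% G and C, with 31 CpG pairs and 7 GGGCGG matches, several of which overlap. The windows of the 9 neighbours with a listed start (all but Cspg5) were 48.8% to 66.4% G and C and held 7 to 21 CpG pairs, beside medians of 52.4% and 6 over 32841 RefSeq promoters of this length. At the first listed start of each gene, CCAAT was found in 3 neighbours (33.9% of all promoters), GGGCGG in 3 (32.7%) and TATAAA in 3 (12.4%). The window of a second listed start of Scap, not printed here, also holds GGGCGG. The TATAAA match of Klhl18 and that of Kif9 are the same letters. A match describes the letters only.

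Setd2 itself, the targeted gene, stood at 118, 120.1, 99.2 and 114 CPM in the control libraries and at 57.8, 87.1, 55.7, 53.9 and 76.1 CPM in the Setd2-deleted libraries. The genotypes did not overlap, in the direction of the labels. The mean fell from 113 ± 9.45 (SD, n = 4) to 66.1 ± 14.7 CPM (SD, n = 5), with a log2 fold change of -0.77 (SE 0.145, adjusted p = 0.00756 with edgeR's quasi-likelihood test and Benjamini-Hochberg adjustment). The remaining counts cover the whole gene, since the table gives 1 value per gene and not per exon.

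Of the 10 neighbours, 9 passed the filter on low counts, and 2 of these 9 had an adjusted p under 0.05, both lower. In the fits over all 9 libraries without covariates none was higher at an unadjusted p under 0.05 in edgeR, or at an adjusted one with DESeq2 or limma-voom. Among all 14593 genes tested, 13.3% were called, 6.76% higher and 6.54% lower. The same 2 neighbours were the ones whose libraries did not overlap between the genotypes, which held for 17.2% of all genes tested. With a count of 9, the share of neighbours called (22.2%) rests on 2 genes. In the neighbours, 7 of 9 fold changes were below 0, with a median log2 fold change of -0.25, beside 7302 of 14593 below 0 and a median of -0.0006 over all genes. With the term for the libraries with Y-linked counts, 2 of 9 neighbours were called (8.81% of all genes), and in the 6 libraries without such counts 3 of 9 were called (19.4% of all genes). All of these were lower, while Kif9 was higher at an unadjusted p under 0.05 in both of these edgeR fits and was not called (adjusted p = 0.176 and 0.114).

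**Figure D1:**
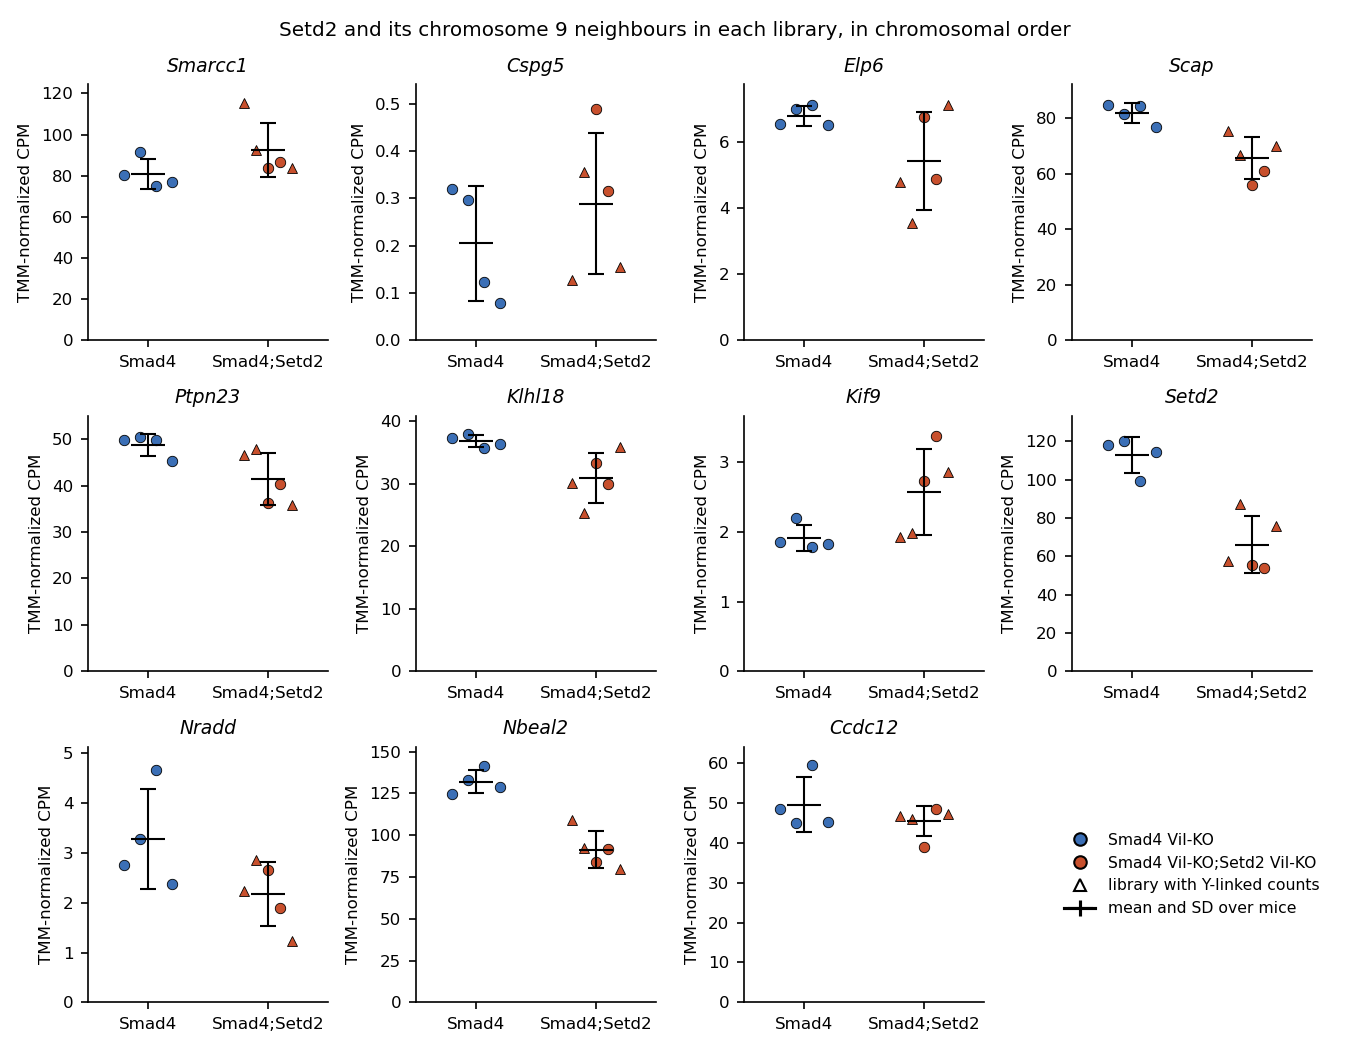
TMM-normalized CPM (linear axis from 0) of Setd2 and its 10 neighbours in each library, in chromosomal order, with circles and triangles for single libraries and bars for the mean and SD over 4 control (Smad4) and 5 Setd2-deleted (Smad4;Setd2) libraries; triangles mark the 3 libraries with Y-linked counts. Setd2, Scap and Nbeal2 are the genes in which the genotypes do not overlap.

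Among the neighbours that act in membrane traffic and sterol control, Nbeal2 showed the clearest difference. NBEAL2 is a BEACH domain protein that platelets need to form their alpha-granules. Its level was 125, 133, 141 and 129 CPM in the control libraries and 109, 92.6, 84.0, 91.9 and 79.7 CPM in the Setd2-deleted libraries. Every library without Setd2 was below every library with it. The mean fell from 132.0 ± 7.06 (SD, n = 4) to 91.4 ± 11.2 CPM (SD, n = 5), and the log2 fold change was -0.53 (SE 0.094, 95% confidence interval -0.74 to -0.32, adjusted p = 0.00585 with edgeR's quasi-likelihood test and Benjamini-Hochberg adjustment). It was called lower in all 19 alternative fits, with log2 fold changes of -0.60 to -0.47. Its fold change on the log2 scale was -0.59 (adjusted p = 0.0184) with the term for Y-linked counts and -0.58 (adjusted p = 0.00237) in the 6 libraries without them. In these bulk samples, fewer cells of a type and less RNA per cell cannot be told apart. The platelet markers Pf4 and Ppbp had at most 3 counts in every library, and the list of 6 such markers summed to 2.31 to 4.69 CPM in the control and 2.09 to 4.94 CPM in the Setd2-deleted libraries, with neither of the 2 tested called or at an unadjusted p under 0.05.

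SCAP escorts the SREBP transcription factors from the endoplasmic reticulum to the Golgi when sterols are low. Scap was measured at 84.8, 81.6, 84.3 and 76.9 CPM in the control libraries and at 75.5, 66.6, 55.9, 60.9 and 70.0 CPM in the Setd2-deleted libraries. The genotypes did not overlap, but the highest library without Setd2 came close to the lowest library with it. The mean was 81.9 ± 3.58 (SD, n = 4) against 65.8 ± 7.67 CPM (SD, n = 5), with a log2 fold change of -0.32 (SE 0.093, 95% confidence interval -0.52 to -0.11, adjusted p = 0.0470 with edgeR's quasi-likelihood test). The call was lost in 12 of 19 alternatives (adjusted p from 0.00503 to 0.125 over all 19), among them both other scalings, both other filters, and the fits without any 1 of control replicates 1 to 4 (adjusted p = 0.119, 0.0957, 0.125 and 0.0671) or Setd2-deleted replicates 2, 3 and 4 (0.0722, 0.0812 and 0.104). On the log2 scale Scap differed by -0.49 (adjusted p = 0.0120) with the term for Y-linked counts and -0.48 (adjusted p = 0.00503) without those libraries.

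PTPN23, also called HD-PTP, is a phosphatase-like protein that works with the ESCRT machinery in endosomal sorting. Its gene was at 49.8, 50.4, 49.8 and 45.3 CPM in the control libraries and at 46.6, 47.9, 36.3, 40.4 and 35.8 CPM in the Setd2-deleted libraries. The genotypes overlapped, with the 2 highest libraries of the latter being those of replicates 1 and 2. The log2 fold change of Ptpn23 was -0.24 (SE 0.10, 95% confidence interval -0.47 to -0.0064) and did not pass the test (adjusted p = 0.154 with edgeR's quasi-likelihood test). In the 6 libraries without Y-linked counts it was -0.34 and passed (adjusted p = 0.0288), as it did with limma-voom (adjusted p = 0.0303). These were the 2 of 19 alternatives in which it passed, and with the Y-linked term it was -0.35 and did not (adjusted p = 0.124).

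Of the neighbours in ubiquitin ligation and the cytoskeleton, Klhl18 encodes an adaptor of the CUL3 ubiquitin ligase and Kif9 a kinesin of cilia and flagella. Klhl18 was at 37.3, 38.0, 35.7 and 36.4 CPM in the control libraries and at 30.1, 25.3, 33.3, 30.0 and 35.9 CPM in the Setd2-deleted libraries. In 4 of 5 libraries without Setd2 it was below all libraries with it, and replicate 5 lay within their range. Klhl18 had a log2 fold change of -0.25 (SE 0.10, 95% confidence interval -0.48 to -0.027, adjusted p = 0.124 with edgeR's quasi-likelihood test).

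Kif9, the neighbour next to the start of Setd2, was rare, with 23 to 37 counts per control library and 28 to 43 per Setd2-deleted library. Its level was 1.86, 2.20, 1.78 and 1.83 CPM in the former and 1.92, 1.99, 2.73, 3.38 and 2.87 CPM in the latter. Replicates 1 and 2 of the Setd2-deleted libraries lay within the range of the other genotype and replicates 3, 4 and 5 above it. Kif9 had a log2 fold change of 0.42 (SE 0.24, 95% confidence interval -0.12 to 0.96, adjusted p = 0.265 with edgeR's quasi-likelihood test), and 0.67 (adjusted p = 0.176) once the term for Y-linked counts was in the fit. Of 4 tested markers of ciliated cells none was called by edgeR, DESeq2 or limma-voom, 2 were higher at an unadjusted p under 0.05, and the list summed to 6.57 to 9.75 CPM in the control and 5.19 to 17.1 CPM in the Setd2-deleted libraries. The ratio of Kif9 to Klhl18 counts, which no scaling can change, was 0.0519 ± 0.00398 (SD, n = 4, range 0.0498 to 0.0579) in the control libraries and 0.0834 ± 0.0179 (SD, n = 5, range 0.0638 to 0.113) in the Setd2-deleted libraries. The ranges did not overlap, but the pair was chosen after the values were seen, so no test is given.

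Among the neighbours that act on chromatin and RNA, none was called. SMARCC1 is a core subunit of the BAF chromatin remodelling complexes. Smarcc1 was at 80.5, 91.4, 75.2 and 76.8 CPM in the control libraries and at 115, 92.7, 84.0, 86.5 and 83.8 CPM in the Setd2-deleted libraries, where replicate 1 stood above the others. For Smarcc1 the log2 fold change was 0.19 (SE 0.11, 95% confidence interval -0.049 to 0.43, adjusted p = 0.260 with edgeR's quasi-likelihood test). It was 0.10 without Setd2-deleted replicate 1 and 0.074 with the Y-linked term. In GENCODE M21 its span overlaps that of Dhx30 on the opposite strand by 123 bases, while the RefSeq spans used for the positions here do not meet, and the strand setting of the counting is not given.

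ELP6 is a subunit of Elongator, which modifies tRNAs. Elp6 was at 6.54, 7.01, 7.12 and 6.51 CPM in the control libraries and at 4.81, 3.56, 6.78, 4.88 and 7.13 CPM in the Setd2-deleted libraries. Replicates 1, 2 and 4 of the latter were below all control libraries, replicate 3 lay within their range and replicate 5 just above it. The log2 fold change was -0.32 (SE 0.21, 95% confidence interval -0.79 to 0.14, adjusted p = 0.317 with edgeR's quasi-likelihood test), and it was -0.20 without Setd2-deleted replicate 2.

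CCDC12 is a component of the spliceosome. Ccdc12 was at 48.6, 44.9, 59.5 and 45.3 CPM in the control libraries and at 46.7, 45.9, 38.9, 48.5 and 47.2 CPM in the Setd2-deleted libraries, so that 4 of 5 libraries without Setd2 lay within the range of the others. For Ccdc12 the log2 fold change was -0.13 (SE 0.11, 95% confidence interval -0.36 to 0.11, adjusted p = 0.447 with edgeR's quasi-likelihood test). It was -0.023 without control replicate 3 and -0.066 without Setd2-deleted replicate 3. In GENCODE M21, the span of Ccdc12 overlaps that of the antisense gene Gm35715 by 5626 bases. Without a known strand setting, how reads from this overlap were assigned is not known.

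The last group holds a receptor-like gene and a neural gene. Nradd, which encodes a death domain protein related to the neurotrophin receptor, lies closest to the end of Setd2. It was at 2.76, 3.27, 4.67 and 2.38 CPM in the control libraries and at 2.24, 2.85, 2.66, 1.89 and 1.24 CPM in the Setd2-deleted libraries. The ranges overlapped. The log2 fold change of Nradd was -0.59 (SE 0.29, 95% confidence interval -1.23 to 0.058, adjusted p = 0.20 with edgeR's quasi-likelihood test). Without control replicate 3, the highest library, it was -0.36 (adjusted p = 0.501).

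Cspg5, a chondroitin sulphate proteoglycan of neural tissue, was not tested. It had 5, 5, 2 and 1 counts in the control libraries and 2, 5, 7, 4 and 2 counts in the Setd2-deleted libraries. These counts did not pass the filter on low counts, so whether the genotypes differ is not known. The markers S100b and Sox10 of enteric glia were at 3 counts or fewer in every library, and 1 of the 2 tested markers of enteric neurons and glia was called higher (list sum 1.51 to 3.14 CPM in the control and 2.28 to 4.41 CPM in the Setd2-deleted libraries).

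**Figure D2:**
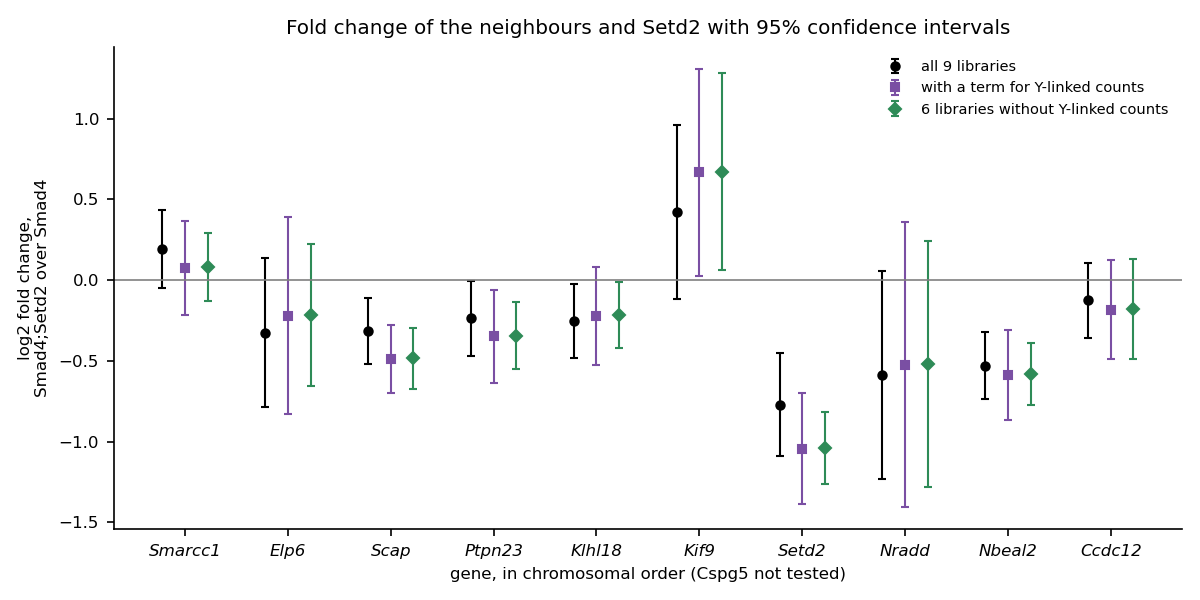
Log2 fold change (Setd2-deleted over control, vertical axis) of Setd2 and the 9 tested neighbours in chromosomal order, with 95% confidence intervals, in all 9 libraries (black), with a term for the 3 libraries with Y-linked counts (purple) and in the 6 libraries without them (green). The intervals of Scap, Setd2 and Nbeal2 lie below 0 in each of the 3 fits, as do those of Ptpn23, whose adjusted p was under 0.05 in the 6 libraries alone. The purple and green fits take the genotype difference from the same 6 libraries and are not separate checks.

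Per kb of annotated exon, the neighbours spanned a wide range of levels in control IECs. Ccdc12 was highest, at 18.4 ± 2.53 CPM per kb (SD, n = 4), followed by Nbeal2 (13.8 ± 0.739), Scap (11 ± 0.481), Smarcc1 (10.3 ± 0.931), Ptpn23 (8.68 ± 0.424) and Klhl18 (5.25 ± 0.142). Scap and Smarcc1 differed by less than the SD of Smarcc1. Elp6 (2.37 ± 0.11) and Nradd (1.80 ± 0.551) differed by about the SD of Nradd, and Kif9 (0.446 ± 0.0444) and Cspg5 (0.0204 ± 0.0121) were lowest. In the Setd2-deleted libraries, Smarcc1 (11.8 ± 1.69, SD, n = 5) came above Nbeal2 (9.57 ± 1.17) and Scap (8.83 ± 1.03), behind Ccdc12 at 16.9 ± 1.41 CPM per kb. Setd2 itself went from 10.5 to 6.15 CPM per kb.

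The genes that lie farther out were examined to see where the neighbours stand on their chromosome. Within 1 Mb of Setd2, 23 other genes were tested, the 9 neighbours included, and 5 were called, all lower, with 18 of 23 fold changes below 0 and a median log2 fold change of -0.24. The 14 of them that are no neighbours gave 3 calls (21.4%) and a median of -0.22, close to the 22.2% and -0.25 of the neighbours, and the difference between these sets was not tested. At 1 to 5 Mb, 22 of 102 genes were called lower and 2 higher, and at 5 to 10 Mb 8 of 57 were called lower and 5 higher. Beyond that, at 10 to 20 Mb, 0 of 79 were called lower and 8 higher by edgeR (5 and 19 at an unadjusted p under 0.05, 1 and 14 with DESeq2, 5 and 10 with limma-voom), and over 20 Mb away 30 of 526 were called lower and 31 higher. On the other chromosomes 874 of 13626 genes (6.41%) were called lower and 922 (6.77%) higher.

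**Figure D3:**
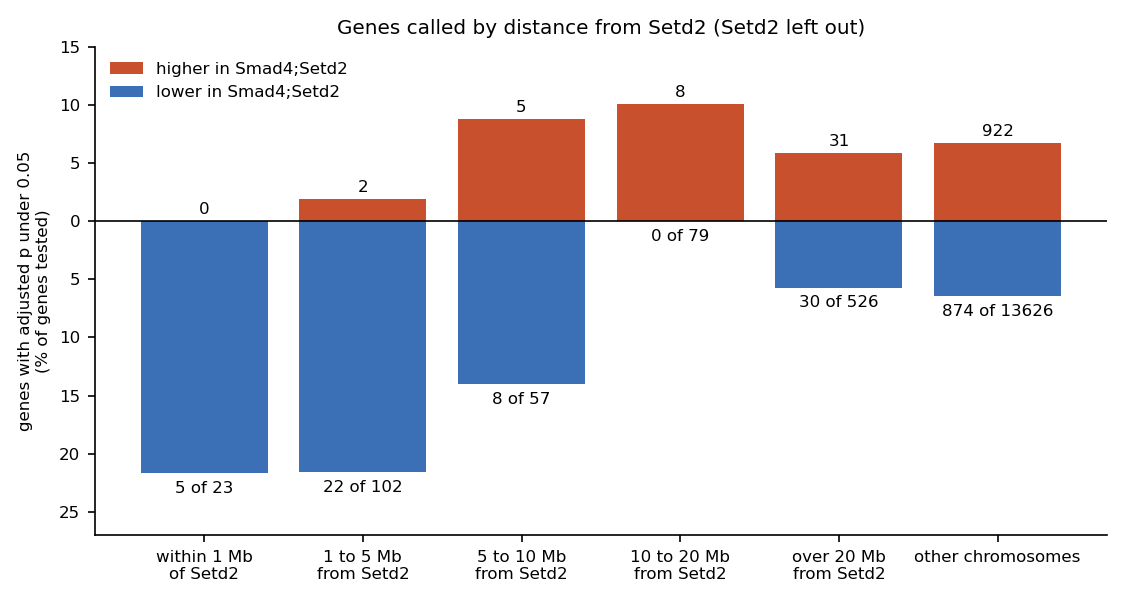
Share of tested genes with an adjusted p under 0.05 (edgeR, percent of genes tested, vertical axis) by distance from Setd2, with genes higher in the Setd2-deleted libraries above the line and genes lower below it, and the numbers of genes beside the bars. Lower genes make up 21.7% within 1 Mb and 21.6% at 1 to 5 Mb, against 6.41% on other chromosomes.

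Taking the 10 Mb on either side together, 35 of 182 genes (19.2%) were called lower and 7 (3.85%) higher, with a median log2 fold change of -0.18. The calls lay on both sides, with 27 lower and 6 higher among 123 genes before Setd2 and 8 lower and 1 higher among 59 after it. Once the term for Y-linked counts was added, 27 of 182 were lower (14.8%, beside 4.32% of all genes) and 3 higher (1.65%, beside 4.48%). In the 6 libraries without such counts, 51 of 187 were lower (27.3%, beside 10.1% of all genes) and 8 higher (4.28%, beside 9.29%). When the genome was divided into windows of 20 Mb, the window that holds Setd2 had the highest share of lower genes (19.9% of 176) of 115 windows with at least 50 tested genes, followed by the first window of chromosome 7 (18.7% of 150). The median window had 5.29%. The Setd2 window kept the first rank in all 19 alternative fits (11.8% to 28.4% lower). By the share called in either direction it ranked 3 and by median fold change 2. Over its whole length chromosome 9, with 8.26% called lower, ranked 7 of 20 chromosomes. The 10 Mb range and the 20 Mb windows were added after the data were seen, and genes of 1 region are not independent of each other, so these shares are a description.

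**Figure D4:**
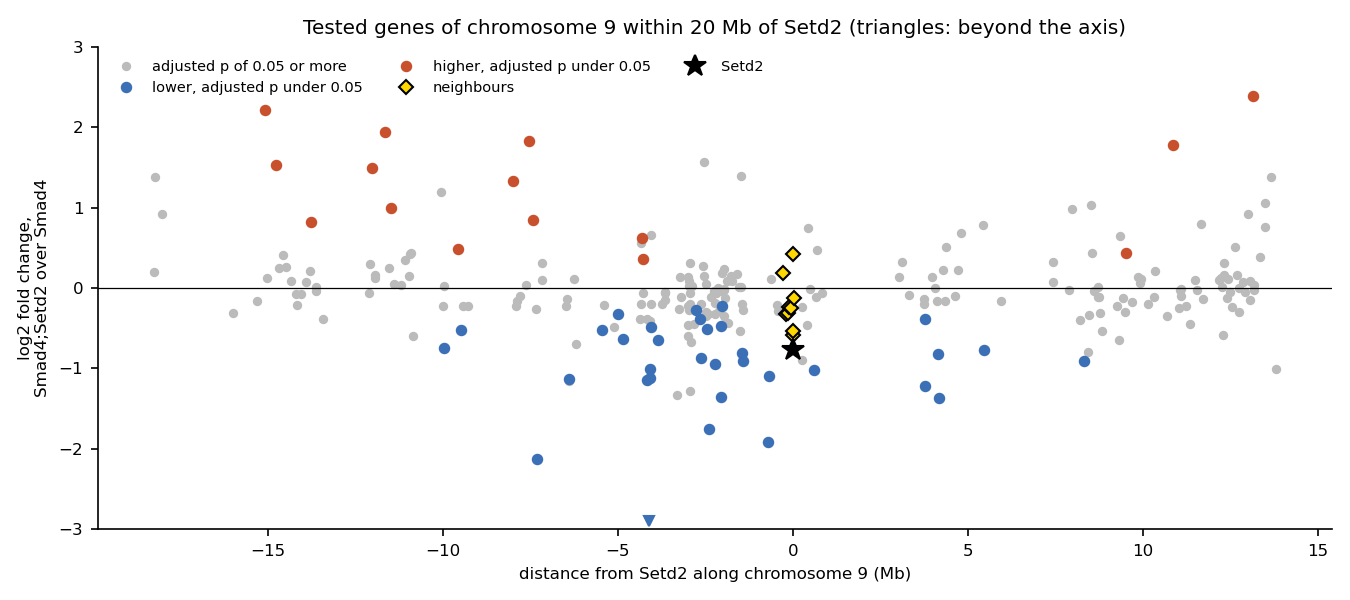
Log2 fold change (vertical axis) of the tested genes of chromosome 9 within 20 Mb of Setd2 against their distance from it (Mb), with the 9 tested neighbours as yellow diamonds, Setd2 as a star, genes with an adjusted p under 0.05 in blue (lower) or red (higher), others in grey, and a triangle for Rpl29, which lies beyond the axis at -6.32. The neighbours lie between -0.59 and 0.42, and within 5 Mb 27 genes called lower, 2 of them neighbours, stand beside 2 called higher.

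Of the next tested genes beyond the interval, 3 on each side, none was called by edgeR over all 9 libraries. Before Smarcc1 these were Dhx30, an RNA helicase (log2 fold change -0.29, adjusted p = 0.0729 with edgeR's quasi-likelihood test), Map4, a microtubule-associated protein (-0.21, 0.105), and Cdc25a, a cell cycle phosphatase (0.12, 0.453, and 0.059 without control replicate 1). The libraries of Dhx30 did not overlap, at 44.1 to 52.3 CPM against 33.8 to 42.8 CPM, and DESeq2 (adjusted p = 0.0474) and limma-voom (0.0409) called it lower. After Ccdc12 came Tmie (-0.90, 0.266), Als2cl (-0.23, 0.397) and Ltf, which encodes lactoferrin (-0.46, 0.576). With the Y-linked term Tmie stood at -0.066, and Als2cl was called lower in the 6 libraries without Y-linked counts (-0.54, adjusted p = 0.00574) and by limma-voom (-0.43, adjusted p = 0.0383) but not with the Y-linked term (-0.55, adjusted p = 0.11). With a library left out Als2cl was at -0.35 to -0.14 (without Setd2-deleted replicates 2 and 5). Farther out, Nme6, a nucleoside diphosphate kinase family member 0.690 Mb before Setd2, fell by 1.09 on the log2 scale (adjusted p = 0.00428 with edgeR's quasi-likelihood test), from 10.6 to 4.99 CPM, and the adjoining pseudogene 3000002C10Rik by 1.92 (adjusted p = 0.0141), from 1.86 to 0.486 CPM. With the Y-linked term the call of 3000002C10Rik was lost (log2 fold change -1.40, adjusted p = 0.105). It had 19 to 36 counts per control library and 1 to 10 per Setd2-deleted library, and passed the filter on low counts through the control libraries. It is 1 of the 3 called genes within 1 Mb that are no neighbours.

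Farther before Setd2, the next called genes were lower as well. They were Plxnb1, a semaphorin receptor (-0.90, 1.41 Mb away), Tma7 (-0.81), Usp19, a deubiquitinase (-0.22), Lamb2, a laminin chain (-1.36), Ccdc71 (-0.47), Amt of the glycine cleavage system (-0.95) and the lncRNA 4930447F24Rik (-1.76, 2.39 Mb away), with adjusted p between 0.000985 and 0.0428 in edgeR's quasi-likelihood test. In each of these the genotypes did not overlap, as in 17.2% of all genes tested. They were picked by adjusted p in the same counts, so this is no separate support. The call of Usp19 was lost in 12 of 19 alternatives (adjusted p from 0.00547 to 0.112 over all 19), among them the fits without any 1 of control replicates 1 to 4 or Setd2-deleted replicates 1 to 4. That of Ccdc71 was lost without control replicate 1, 2 or 3 (adjusted p = 0.0526, 0.0556 and 0.0567) and with the Y-linked term (0.0554), and that of Amt with the Y-linked term (log2 fold change -0.64, adjusted p = 0.081). The largest fold change within 5 Mb was that of Rpl29, a ribosomal protein gene 4.10 Mb before Setd2, at 194 to 215 CPM in the control libraries and 1.21 to 3.29 CPM in the Setd2-deleted libraries (log2 fold change -6.32, SE 0.20, adjusted p = 2.94e-08). Ribosomal protein genes have near-identical copies in the genome, how the counting treated them is not given, and their part in this value was not tested. Beside it, 4.16 Mb before Setd2, Dusp7, a phosphatase of ERK, fell from 9.90 ± 1.31 (SD, n = 4) to 4.48 ± 1.36 CPM (SD, n = 5), with a log2 fold change of -1.14 (SE 0.23, adjusted p = 0.00996 with edgeR's quasi-likelihood test). Dusp7 was named after its values were seen.

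The genes whose products work with the neighbours lie mostly elsewhere, 94 of the 99 tested on other chromosomes. Of the 99, 5 were called higher and 2 lower (7.07%, beside 13.3% of all genes), and their median log2 fold change was 0.050. Among 6 genes of SREBP processing and 12 sterol genes driven by SREBP2, which depend on SCAP, none was called by edgeR. Of the 12, 5 were higher and 0 lower at an unadjusted p under 0.05, DESeq2 called 1 higher and limma-voom 4, and their median was 0.23, with 3 below 0. Of the 6, 1 was higher by DESeq2 and by limma-voom. None of 28 ESCRT genes, the partners of Ptpn23, was called by edgeR (3 higher and 2 lower at an unadjusted p under 0.05, and 1 lower by DESeq2 and by limma-voom). Of 21 other BAF subunits, Pbrm1 rose by 0.32 (adjusted p = 0.0232 with edgeR's quasi-likelihood test) and Brd9 fell by 0.33 (adjusted p = 0.0223).

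Of 4 other Elongator subunits, Elp2 fell from 36.8 ± 1.28 (SD, n = 4) to 22.04 ± 6.01 CPM (SD, n = 5), with a log2 fold change of -0.74 (adjusted p = 0.0205 with edgeR's quasi-likelihood test). Among 5 genes of the CUL3 ligase and its adaptors, Klhl13 rose by 2.22 (adjusted p = 0.0428) from a level of 0.284 CPM, close to the limit of detection, to 1.39 CPM. Klhl13 was at 0.159 to 0.535 CPM in the control libraries and passed the filter on low counts through the Setd2-deleted libraries. Its call, 1 of the 5 higher ones among the partners, therefore depends on the group in which it was high. Among 8 other BEACH domain genes, Nbea rose (log2 fold change 1.002, adjusted p = 0.0109), from 9.88 to 19.8 CPM, the opposite direction to Nbeal2. The libraries of Klhl13 overlapped between the genotypes, as did those of Nbea. Of 15 spliceosome factors, Crnkl1 (0.39, adjusted p = 0.00798) and Bud31 (0.30, adjusted p = 0.0354) rose. Over the alternatives of each gene the calls of Nbea and Crnkl1 held throughout, while those of Bud31 (8), Brd9 (6), Pbrm1 (5), Klhl13 (5) and Elp2 (4) were lost in the number of alternatives given, always including some with 1 library left out.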

How the data were processed

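RNA-seq was analysed from colonic IECs of 4 Smad4 Vil-KO (control) and 5 Smad4 Vil-KO;Setd2 Vil-KO (Setd2-deleted) libraries, grouped by their labels. The authors deposited raw whole-number counts per gene symbol (46095 rows, 9 columns). The submitters' processing notes name HISAT2 2.0 and mm10; the counting program, annotation and strand setting are not given in the sources used here. Rows were matched to the RefSeq gene table of GRCm38.p6 (44666 matched: 41483 by symbol, 2152 by gene number and 1031 by an older symbol), and exon lengths were taken from GENCODE M21. Genes were kept with filterByExpr by genotype, normalized with TMM and tested in R 4.3.3 with the quasi-likelihood test of edgeR 4.0.16 over all 9 libraries without covariates, and p-values were adjusted by Benjamini-Hochberg over the 14593 genes tested. SEs were obtained by dividing the size of each log2 fold change by the square root of its F statistic. Called means an adjusted p under 0.05.

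Libraries of 1 genotype differed beyond sampling noise (the lowest chi-square per gene of any pair was 9.22), and all were used. The precision of rare genes is limited by counting error, and 1 count is given in CPM. The alternatives were DESeq2 1.42.0 and its size factors, limma-voom (limma 3.58.1), library size alone, other filters, a robust fit, each library left out, replicate number as a block, other thresholds, a term for libraries with over 1000 Y-linked counts and the libraries without them. The method was tested on simulated data. Named genes were the neighbours, Setd2, genes between them, the 3 nearest tested genes on each side, up to 10 called genes within 5 Mb and the 3 largest changes there, and called members of the partner lists; not every gene that met this rule is reported here. The neighbours and lists were chosen with earlier results of these data known. ChIP-seq was not analysed here.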

Additional observations from a re-analysis of the deposited data

Results flagged for a closer look

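The levels of the 10 neighbours and Setd2 were searched for libraries that stand far from the others of their genotype, which were 22 groups in all. By Dixon's test at 95%, which flags about 1 in 20 groups by chance, 3 groups held such a library. Smarcc1 was at 115.2 CPM in Setd2-deleted replicate 1, and the nearest library of that genotype was at 92.71 CPM (gap over range 0.715). Ptpn23 was at 45.25 CPM in control replicate 4, below the nearest library at 49.75 CPM (0.874). Ccdc12 was at 38.87 CPM in Setd2-deleted replicate 3, below the nearest library at 45.89 CPM (0.727). None of these genes was called between the genotypes by edgeR in the fit over all 9 libraries, while limma-voom called Ptpn23 lower (adjusted p = 0.0303).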

How the results depend on the processing

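No neighbour changed the sign of its fold change in any of 19 alternative fits. The number of neighbours called, 2 in the fit over all libraries, was 1 with DESeq2's size factors, library size alone, no filter, at least 10 counts in every library or an adjusted p under 0.01, where Nbeal2 remained, 0 when a call needed an unadjusted p under 0.05 and more than a 1.5-fold difference, and 1 to 2 with a library left out. The number without overlap (2) was 2 to 4 with a library left out, with 4 without control replicate 2. With fewer libraries, any gene reaches non-overlap more easily, and no share of all genes is given beside these counts. Within 1 Mb of Setd2 the 5 calls became 3 with at least 10 counts in every library, 8 with limma-voom, 3 with an adjusted p under 0.01, 3 with the fold threshold and 4 to 5 with a library left out. Within 10 Mb the 35 lower genes became 16 and the 7 higher genes 0 with an adjusted p under 0.01. With a library left out they were 21 to 42 (21 without control replicate 3) and 1 to 11, and the higher genes were 3 with the term for Y-linked counts. The 7 partner genes called became 13 with DESeq2, 17 with limma-voom and 15 in the libraries without Y-linked counts, where 19.4% of all genes were called. They became 1 with an adjusted p under 0.01, 4 with the fold threshold and 2 to 13 with a library left out. For most alternatives named here the share of all genes called is not given, so these counts alone do not set the genes apart from the rest. The log2 fold change of Ltf, -0.46 and not called, was -0.71 to 0.081 with a library left out (lowest without control replicate 1, highest without control replicate 2) and -0.82 with the Y-linked term. The causes of these changes were not tested. The range of 10 Mb, the partner counts and the counts without overlap were varied after the data were seen.

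The replicate numbers did not appear to pair the libraries. Libraries of the same number correlated at -0.128 to 0.0773 in their deviations from the genotype means, and each control library correlated best with another number. These best correlations were themselves low, at 0.0524 to 0.322, so the check could not exclude a weak pairing. With the replicate number as a block, 1 neighbour was called, Nbeal2 (log2 fold change -0.49, adjusted p = 0.0343 with edgeR's quasi-likelihood test), and Scap had -0.35 (adjusted p = 0.0717). Depth limits Cspg5, Kif9 and Nradd most among the neighbours.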
